A study of Mus musculus with 3 samples.

Results

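The mouse genome holds 2 copies of a block that carries Nkx2, Pax and Foxa transcription factor genes. The chromosome 2 copy has Nkx2-4, Nkx2-2, Pax1 and Foxa2 in that order. The chromosome 12 copy has Nkx2-1, Nkx2-9, Pax9 and Foxa1. Members were all entries of the deposited Cbx2 peak table that overlap 146.88 to 147.9 Mb of chromosome 2 or 57.6 to 58.67 Mb of chromosome 12 (mm9). The rule found 6 of the 2217 listed peaks, 4 on chromosome 2 and 2 on chromosome 12. Among the listed peaks the rule used positions and no ChIP signal, but the list itself is one of Cbx2 peaks.

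Cbx2 was mapped by chromatin immunoprecipitation and sequencing (ChIP-seq) in C3H10T1/2, a line of mesenchymal progenitor cells from mouse embryos. The control library (WT) came from cells with a stable FLAG-HA-tagged wild-type H3.3 transgene. The other library (K36M) is titled as H3.3K36M, the histone with methionine in place of lysine 36, although its genotype label reads wild type as well. Each group had 1 ChIP library, so no difference between WT and K36M could be set against replicate error, and no p-value is given. The labels name no separate clones or cultures, and an input library from the WT cells has no column in the table. Values are reads per 1000000 library reads (RPM), and no input was subtracted from them here. The part of background reads in any K36M/WT ratio was not tested. Depth was 29278813 reads in WT and 36243012 in K36M, of which 1.63% and 0.674% lay in listed peaks.

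Cbx2 is a subunit of Polycomb repressive complex 1. Its chromodomain binds histone H3 trimethylated at lysine 27, a mark that covers silent developmental genes, many with CG-rich starts. H3.3 with the K36M substitution inhibits lysine 36 methyltransferases, and lysine 36 methylation hinders methylation of lysine 27 on the same histone tail. The Nkx2 genes encode homeodomain factors: Nkx2-2 and Nkx2-9 pattern the ventral neural tube, Nkx2-1 acts in thyroid, lung and forebrain, and Nkx2-4 is the closest relative of Nkx2-1. Pax1 and Pax9 are paired-box factors of the sclerotome, the source of vertebrae, and of the pharyngeal pouches. Foxa2 and Foxa1 are forkhead pioneer factors of endoderm, and Foxa2 also acts in notochord and floor plate. The gene at each peak was not assigned, because the gene positions at hand are on GRCm38.p6 and the peaks on mm9. On GRCm38.p6 the order of the 8 genes is as given above. No other protein-coding gene lies between Nkx2-4 and Foxa2, while Slc25a21, Prps1l3 and Mipol1 lie between Pax9 and Foxa1.

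The reference sequence before the first and last gene of each block is shown because the blocks are compared at these ends: peaks were listed at both ends of the chromosome 2 block, and on chromosome 12 at the Foxa1 end but not at the Nkx2-1 end. Each line gives the 250 bases before the most upstream start of the gene in RefSeq (GRCm38.p6), 5′ to 3′ on the gene's strand, with every CG pair in capitals. These positions cannot be set against the mm9 positions of the peaks.
Nkx2-4 (chr2:147085346-147085595, minus strand): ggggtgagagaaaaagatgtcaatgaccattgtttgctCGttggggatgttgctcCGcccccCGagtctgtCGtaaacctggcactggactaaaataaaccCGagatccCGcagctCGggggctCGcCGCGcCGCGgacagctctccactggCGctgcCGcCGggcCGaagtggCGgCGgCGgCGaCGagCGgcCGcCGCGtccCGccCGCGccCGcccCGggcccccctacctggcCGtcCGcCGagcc
Nkx2-1 (chr12:56536909-56537158, minus strand): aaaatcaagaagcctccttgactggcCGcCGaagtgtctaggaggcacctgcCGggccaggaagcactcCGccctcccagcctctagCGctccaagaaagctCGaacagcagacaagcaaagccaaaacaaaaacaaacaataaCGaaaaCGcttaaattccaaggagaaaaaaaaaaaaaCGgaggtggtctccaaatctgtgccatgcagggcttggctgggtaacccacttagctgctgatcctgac
Foxa2 (chr2:148046970-148047219, minus strand): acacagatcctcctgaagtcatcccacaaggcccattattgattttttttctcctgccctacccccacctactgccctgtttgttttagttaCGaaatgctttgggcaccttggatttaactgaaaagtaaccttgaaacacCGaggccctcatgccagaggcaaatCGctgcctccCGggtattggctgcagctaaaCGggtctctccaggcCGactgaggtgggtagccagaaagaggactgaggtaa
Foxa1 (chr12:57546112-57546361, minus strand): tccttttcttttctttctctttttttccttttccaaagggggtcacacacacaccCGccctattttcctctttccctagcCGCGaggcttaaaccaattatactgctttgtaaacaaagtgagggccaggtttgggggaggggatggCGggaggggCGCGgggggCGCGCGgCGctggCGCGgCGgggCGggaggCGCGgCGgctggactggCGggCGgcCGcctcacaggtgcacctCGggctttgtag

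The first genes of the blocks, Nkx2-4 and Nkx2-1, differ in this stretch. Nkx2-4 had 33 CG pairs, a number reached by 3.82% of the 27025 genes with such a sequence, and Nkx2-1 had 9, reached by 40.8%. CG reads the same on both strands, and 91.7% of all these stretches hold at least 1. At the last genes the order was the other way, with 21 pairs before Foxa1 (reached by 16.1% of genes) and 6 before the most upstream start of Foxa2 (50.5%). Foxa2 has 3 starts in the table, and the others reach up to 20 pairs. The remaining genes lay between 7 pairs at Pax9 and 13 at Nkx2-9, with 8 at Nkx2-2 and 10 at Pax1, against a median of 6 over all genes. These counts describe the reference sequence and say nothing of Cbx2 at the genes.

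**Figure D1:**
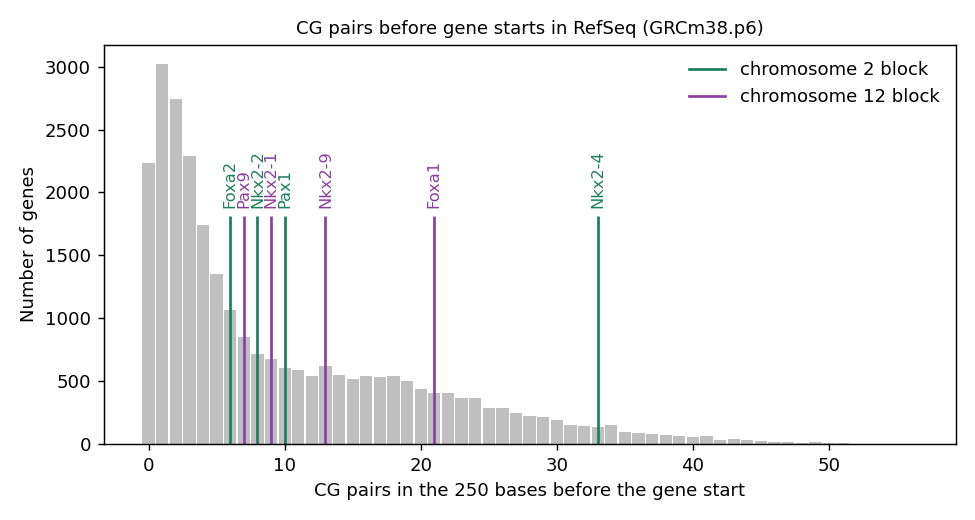
Number of genes (vertical axis) by CG pairs in the 250 bases before the most upstream gene start in RefSeq (horizontal axis, grey bars, 27025 genes), with coloured lines at the 8 genes of the blocks. Nkx2-4 with 33 pairs and Foxa1 with 21 lie to the right of the other 6 genes, which have 6 to 13.

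The blocks differed in where Cbx2 peaks were listed. On chromosome 2 the first peak began 32.0 kb into the interval of 1.02 Mb, at the end where gene order puts Nkx2-4. The others began at 61.4 kb, at 306.6 kb and, for the last, at 976.0 kb, at the end where gene order puts Foxa2. On chromosome 12 no peak was listed over the first 1001.2 kb, which is 93.6% of the interval of 1.07 Mb. Both chromosome 12 peaks lay at the far end, where gene order puts Foxa1, at 1001.2 and 1038.0 kb. The stretch without a listed peak reached beyond the interval: the nearest peak before it ended at 57015599, a gap of 1.59 Mb. Gaps longer than this made up 19.4% of the 2197 gaps between consecutive peaks, whose median was 194 kb. The table lists peaks only, so a lower Cbx2 signal in this gap could not be seen.

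**Figure D2:**
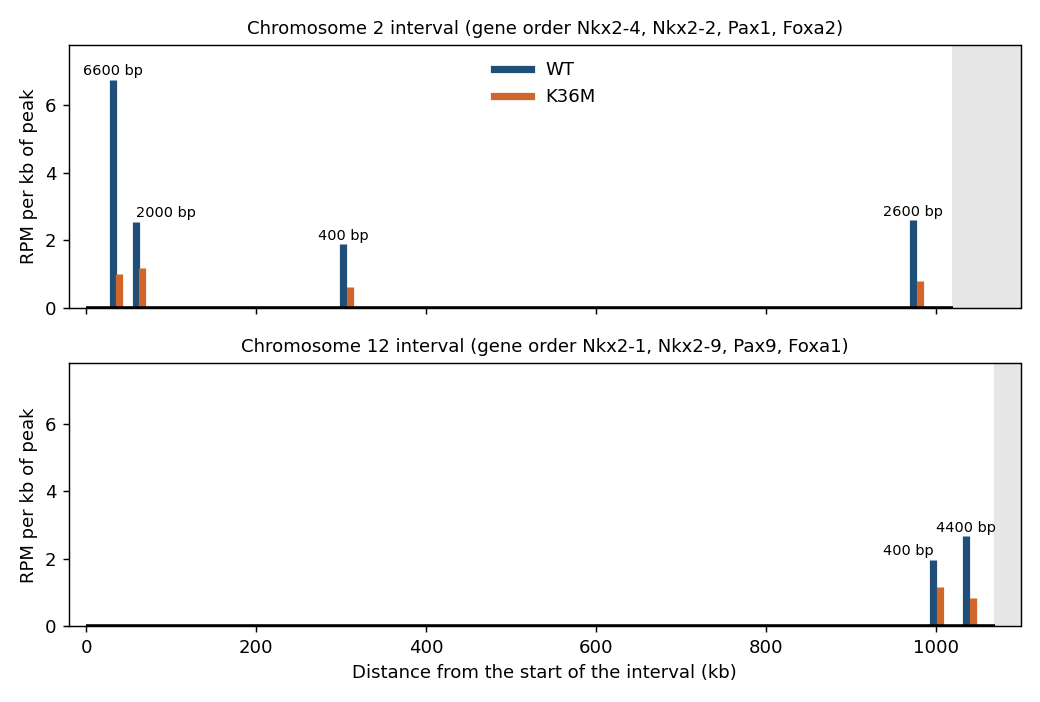
Cbx2 signal in RPM per kb of peak (vertical axis) against the distance from the start of each interval in kb (horizontal axis), WT in blue and K36M in orange, with peak lengths printed above the bars and grey beyond the end of an interval. Peaks lie at both ends of the chromosome 2 interval and only in the last part of the chromosome 12 interval, and every WT bar is higher than its K36M bar on this scale; after scaling to equal medians, the 2000 bp peak and the 400 bp chromosome 12 peak turn.

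The strongest member was the first chromosome 2 peak (mm9, 146912000 to 146918599, 6600 bp). It held 1305 reads or 44.6 RPM in WT and 236 reads or 6.51 RPM in K36M, so the WT library was far higher. The K36M/WT ratio was 0.146 (95% exact Clopper-Pearson interval 0.127 to 0.168), a 6.84-fold lower value. All such intervals hold only the error of counting reads, not the variation between cultures or immunoprecipitations. By RPM in WT this peak ranked 30 of 2217, and by RPM per kb of peak length, 6.75 in WT, it ranked 28. In K36M it ranked 207 by RPM, and by its density of 0.987 RPM per kb it ranked 787. None of the 29 peaks that were stronger in WT had a lower ratio: theirs ran from 0.174 to 1.67, with a median of 0.283. Of the 27 peaks with a higher WT density, none had a lower ratio either, and 9 had a ratio above 1. Both sets are cut at this peak's own rank. Over all 2217 peaks, 34 others had a lower ratio. This standing was looked up after the values were known.

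The second chromosome 2 peak (146941400 to 146943399, 2000 bp) lay 22.8 kb further on and had a higher K36M/WT ratio. It had 149 reads in WT (5.09 RPM) and 85 in K36M (2.35 RPM), a ratio of 0.461 (0.349 to 0.606). Its ratio was 3.15 times that of the first peak (95% exact conditional interval 2.30 to 4.30), so these neighbours differed by more than counting error. The first peak was the denser in WT, at 6.75 against 2.54 RPM per kb. In K36M the densities were closer, at 0.987 and 1.17 RPM per kb. How far background reads raised the ratio of the weaker peak was not tested. Over the 539 consecutive peaks spaced 10 to 100 kb apart, the median distance between log2 ratios was 0.40. The distance here was 1.66, and 15 other neighbours lay at least as far apart.

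The third chromosome 2 peak, in the inner part of the block, was among the weakest of the table. It spans 400 bp (147186600 to 147186999) and had 22 reads in WT (0.751 RPM) and 9 in K36M (0.248 RPM). The ratio of 0.330 has a wide interval, from 0.134 to 0.747, which overlaps those of the other 5 members. Only 8 of the 2217 peaks had fewer RPM in WT.

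The last peaks of the blocks, at the ends that gene order gives to Foxa2 and Foxa1, had ratios that could not be told apart. On chromosome 2 this peak (147856000 to 147858599, 2600 bp) had 197 reads in WT (6.73 RPM) and 73 in K36M (2.01 RPM), a ratio of 0.299 (0.226 to 0.393). On chromosome 12 it (58638000 to 58642399, 4400 bp) had 343 reads in WT (11.7 RPM) and 132 in K36M (3.64 RPM), a ratio of 0.311 (0.252 to 0.381). Per length the levels were close as well, 2.59 and 2.66 RPM per kb in WT and 0.775 and 0.828 RPM per kb in K36M. The chromosome 12 ratio was 1.04 times the chromosome 2 ratio, with an interval from 0.734 to 1.48. The interval thus included equality, and differences of up to 1.48 times on one side and 0.734 times on the other.

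The other chromosome 12 peak (58601200 to 58601599, 400 bp) lay 36.4 kb before the last one. It held 23 reads in WT (0.786 RPM) and 17 in K36M (0.469 RPM), and its ratio of 0.597 (0.299 to 1.17) was the only one of the 6 whose interval included 1. Its ratio was 1.92 times that of its neighbour, with an interval from 0.930 to 3.89. The 426 other peaks of 400 bp had a median ratio of 0.404.

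Cbx2 signal was lower in K36M at each of the 6 peaks in RPM, and at 4 of them after both libraries were scaled to equal medians. The log2 ratio, computed with a pseudocount of 0.1 RPM, passed the 2-fold limit at 5 of 6 members, against 75.3% of all listed peaks, a share near the background. The peak that missed the limit was the 400 bp chromosome 12 peak. The first chromosome 2 peak alone was at least 4-fold lower, a change seen at 15.9% of all peaks. The counting interval lay below 1 at 5 of 6 members, against 86.8% of all peaks. Scaling both libraries to the same median over all peaks adds 1.53 to every log2 ratio. The first chromosome 2 peak then stayed lower in K36M, at -1.24. The 400 bp chromosome 12 peak and the second chromosome 2 peak became higher, at 0.79 and 0.41, and the other 3 lay between -0.21 and -0.067.

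**Figure D3:**
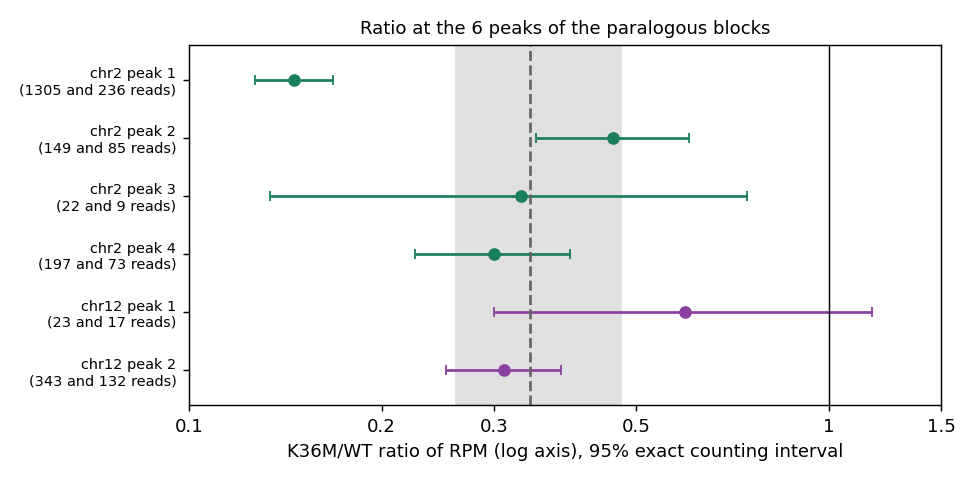
K36M/WT ratio of RPM (horizontal log axis) for the 6 peaks in order along each block, with WT and K36M reads in brackets; bars are 95% exact counting intervals, the dashed line and grey band are the median (0.341) and quartiles (0.261 and 0.474) of all 2217 peaks. The first chromosome 2 peak lies below the band, and the interval of the 400 bp chromosome 12 peak crosses 1.

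The first chromosome 2 peak set the spread of densities between members in WT, and not in K36M. In WT the 6 peaks ran from 1.88 to 6.75 RPM per kb, a 3.60-fold range, with the first chromosome 2 peak far above the others, which reached 2.66. In K36M they ran from 0.621 to 1.17 RPM per kb, a 1.89-fold range, and that peak lay inside it. Without that peak the order turned, with a 1.42-fold range in WT and still 1.89-fold in K36M. The low end in K36M rested on 9 reads at the third chromosome 2 peak, and this turn was not tested against counting error. Over all peaks the median density was 2.35 RPM per kb in WT and 0.828 in K36M. Every listed peak had at least 1.62 RPM per kb in WT, while K36M went down to 0.138, so a region dense in K36M alone may be missing from the table. The part this had in the lower K36M values was not tested.

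**Figure D4:**
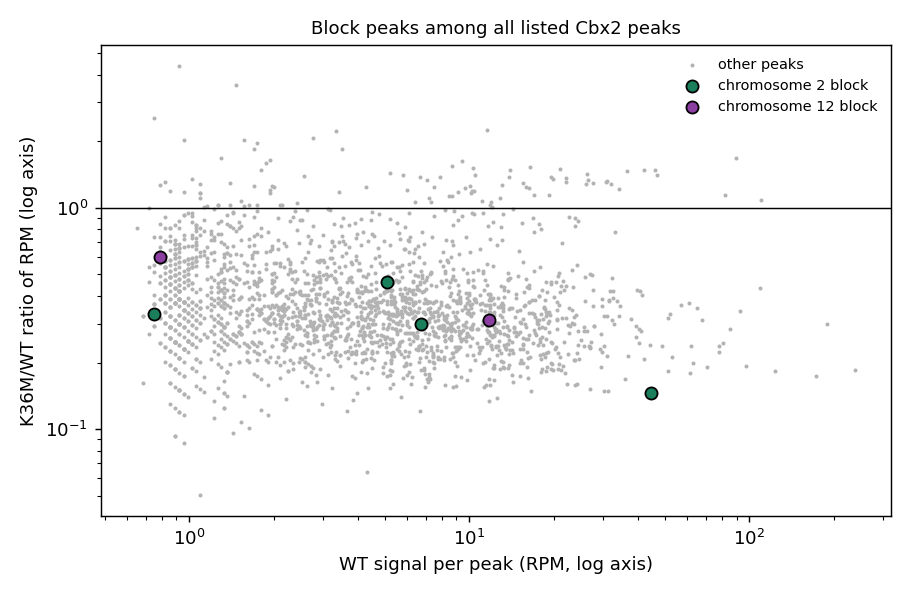
K36M/WT ratio (vertical log axis) against WT signal in RPM (horizontal log axis) for all 2217 peaks in grey, with the 6 block peaks in colour. The first chromosome 2 peak, at 44.6 RPM and a ratio of 0.146, lies below all peaks with more WT signal, while the other 5 lie within the cloud.

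Summed over peaks, the chromosome 2 block held 57.1 RPM in WT and 11.1 RPM in K36M, over 11.6 kb of peak sequence. Its ratio was 0.195 (0.174 to 0.217). The chromosome 12 block held 12.5 RPM and 4.11 RPM over 4.80 kb, a ratio of 0.329 (0.270 to 0.399). The chromosome 12 ratio was 1.69 times that of chromosome 2 (1.35 to 2.11), and this difference does not depend on the scaling of the libraries. It did depend on 1 peak: the first chromosome 2 peak gave 78.0% of that block's WT signal and 58.6% of its K36M signal. Without it the chromosome 2 ratio was 0.367 (0.303 to 0.441), and the chromosome 12 ratio was 0.897 times this value (0.683 to 1.18). The direction was thus turned and the interval included equality. This removal was made on chromosome 2 only and was added after seeing the data. With the strongest peak of each block left out, the log2 difference (chromosome 12 minus chromosome 2) was 0.70, against 0.76 with all peaks. That left 1 chromosome 12 peak, with 23 reads in WT. Its ratio of 0.597 had an interval from 0.299 to 1.17, which overlaps that of the remaining chromosome 2 peaks. No interval was computed for this difference. Unweighted, the median log2 ratio was -1.49 over the 4 chromosome 2 peaks and -1.15 over the 2 on chromosome 12, against -1.45 over all peaks.

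In summed reads, the chromosome 2 block differed from the other peaks of its chromosome beyond counting error only with its first peak included. The chromosome 12 block did not differ from the other peaks of its own chromosome beyond counting error. The 217 other chromosome 2 peaks had a summed ratio of 0.375 (0.368 to 0.381), and the block's ratio was 0.519 times this (0.464 to 0.580). Without its first peak the factor was 0.979 (0.809 to 1.18). The chromosome 12 block was 0.972 times (0.796 to 1.18) the ratio of the 78 other peaks of that chromosome, 0.338 (0.330 to 0.347). These intervals pool reads over peaks and leave out the spread of ratios between peaks. By unweighted median log2 ratio, the chromosome 2 block stood at -1.49 against -1.31 for the other peaks of its chromosome. The chromosome 12 block stood at -1.15 against -1.44. The nearest peaks outside the intervals had ratios of 0.503 (146545600 to 146548999) and 0.237 (150376800 to 150382199) on chromosome 2. On chromosome 12 these were 0.632 (57010600 to 57015599) and 0.295 (62193200 to 62194199). None was close by: those before the intervals lay 331 kb (chromosome 2) and 584 kb (chromosome 12) away. Those beyond the Foxa ends lay 2.48 Mb and 3.52 Mb away.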

How the data were processed

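The deposited table lists Cbx2 peaks with a value for WT and for K36M. The submitters' processing notes name Bowtie 1.0.0 and mm9, and the labels name differing suppliers of the Cbx2 antibody. How peaks were called, in which libraries, and whether the input was used is not given in the sources used here. The columns are headed RPKM, but all values (100%, within 1e-06 of a read) are whole multiples of 1 step per library whatever the peak length, so the deposited values were read as RPM and that step as 1 read. The WT column was read as the ChIP library, not the input, since the table is named for Cbx2.

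Peaks overlapping either interval were taken with Python 3.11.15, pandas 2.3.3 and scipy 1.17.1. Ratios of RPM carry 95% exact intervals on reads, and ratios of ratios carry exact conditional intervals. Both were tested on simulated reads. Each group has 1 library, so a count test across replicates could not be run. All 6 members are named with their values. RefSeq sequences matched all 8 genes. Members, lists and alternatives were chosen with earlier results of these data known. Alternatives were other scalings, pseudocounts, limits, a filter on low values, wider intervals and leaving out the strongest peaks.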

Additional observations from a re-analysis of the deposited data

How the results depend on the processing

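No paired analysis was possible because the groups hold a single ChIP library each, and for the same reason leaving out replicates was not run. Scaling the libraries to the same median gave summed log2 ratios of -0.83 (chromosome 2 block) and -0.074 (chromosome 12 block), medians of -0.13 and 0.28, and 1 and 0 peaks at least 2-fold lower. Scaling to the same sum gave -1.09 and -0.33, -0.37 and 0.037, and again 1 and 0 peaks. These shifts of 1.53 and 1.28 follow from the scalings themselves. Under them the second chromosome 2 peak reached 0.41 and 0.16, and the 400 bp chromosome 12 peak 0.79 and 0.53. The log2 difference between the blocks (chromosome 12 minus chromosome 2) was 0.76 under RPM and both scalings. It was -0.16 without the first chromosome 2 peak, an alternative added after seeing the data, and 0.70 without the strongest peak of each block. The value of 0.70 rests on 1 chromosome 12 peak and has no interval. The ratios behind it, 0.597 (0.299 to 1.17) and 0.367 (0.303 to 0.441), have intervals that overlap. With the strongest peak of each block left out, the summed log2 ratios were -1.45 (chromosome 2) and -0.74 (chromosome 12). In that setting 0 chromosome 12 peaks were at least 2-fold lower. On chromosome 2, 2 peaks were at least 2-fold lower with a pseudocount of 1, and 2 passed a 3-fold limit. On chromosome 12, 2 passed a 1.5-fold limit. Widening the intervals by 100 kb added no peak. Of 66 values over these settings, 7 changed sign, 25 moved beyond counting error or, for counts of peaks, beyond 1.5 times, and 34 did not; these 34 include values that could not move, such as those with wider intervals. Depth limits the 400 bp peaks most, with 22 and 23 reads in WT.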
